A study of Saccharomyces cerevisiae with 4 samples.

Results

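The genes described here are 10 enzymes of lower glycolysis and of the step from pyruvate to acetaldehyde in *Saccharomyces cerevisiae*, namely *TPI1*, *TDH1*, *TDH2*, *TDH3*, *PGK1*, *GPM1*, *ENO1*, *ENO2*, *CDC19* and *PDC1*. Their probes were found by gene symbol in the array annotation. All 10 symbols matched, each to 1 probe, which gave 10 of 6388 gene probes and 20 spots on each array. All measured cells were wild-type BY4742, a haploid strain of the alpha mating type, and carried YCpLac111, a low-copy centromeric plasmid marked with *LEU2*. The cells were grown for 2 doublings in synthetic complete medium without phosphate, with 2% glucose, and received phosphate to 10 mM (standard phosphate) or to 75 uM (low phosphate). There were 2 arrays per group, a and b, each of which compared the sample with a common reference, RNA of wild-type BY4742 for which no plasmid is named. Cy3 carried the sample and Cy5 the reference on the a arrays, and the b arrays had the opposite labelling. These dyes are those of the sample labels. The series' design text puts the test sample of the first hybridization in Cy5, without saying which array that is, and if the labels had the dyes the wrong way round, every ratio and difference given here would change its sign. The letter is therefore the dye orientation, and within a group the culture and the dye cannot be told apart.

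In glycolysis, triose phosphate isomerase, glyceraldehyde-3-phosphate dehydrogenase, phosphoglycerate kinase, phosphoglycerate mutase, enolase and pyruvate kinase act in this order and return the ATP spent on the sugar in the upper part of the pathway. Glyceraldehyde-3-phosphate dehydrogenase takes up inorganic phosphate as a substrate. Yeast growing on glucose carries most of the resulting pyruvate through pyruvate decarboxylase to ethanol, and the mRNAs of these enzymes are among the most abundant in the cell.

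The phosphate labels were checked first on genes of the phosphate response. *SPL2*, an inhibitor of low-affinity phosphate uptake, had log2 ratios of sample over reference of 1.50 and 0.90 on the standard phosphate arrays (a, then b) and of 3.89 and 4.02 on the low phosphate arrays. The high-affinity phosphate transporter gene *PHO84* had 2.26 and 2.21 against 3.47 and 3.92. Both groups of arrays were thus separated in each dye orientation, with differences of 2.75 ± 0.23 (SE, adjusted p = 0.219) for *SPL2* and 1.46 ± 0.18 (SE, adjusted p = 0.32) for *PHO84* in limma. All 4 alpha-specific genes gave a sample signal above 2 times background on every array, and 0 of 6 a-specific genes did. *LEU2* was 1.21 lower in low phosphate, with a difference of -2.04 on the a arrays and -0.39 on the b arrays. Its ratios over the reference were 2.61 and 1.48 in standard phosphate a and b and 0.57 and 1.09 in low phosphate a and b. With the dyes the other way round, these ratios would be negative, and *SPL2* and *PHO84* would be lower in low phosphate. The spread of log2 ratios over all gene probes was 0.20 to 0.27 (SD) on the other arrays and 0.60 on low phosphate b.

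The members were among the brightest features of the arrays, and their scanner signals, given here as mean spot intensities in scanner units, set what the ratios can show. Of the 10 brightest gene probes 6 were members, with *TDH2*, *TDH1* and *TDH3* at the second to the fourth place, and the dimmest member, *TPI1*, was at place 320. *TDH3* gave 30433 and 32424 in the sample channel of standard phosphate a and b and 36550 and 41924 in low phosphate a and b. Its reference signals on the same arrays were 65114, 17772, 40792 and 27494. *TPI1* gave sample signals of 3764, 3077, 4572 and 5196 and reference signals of 10278, 1675, 4396 and 3264. The reference is the same RNA on every array, and its signal ranged more widely between arrays than that of the samples. *TDH3* had its highest reference signal on standard phosphate a, and so did every other member.

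**Figure D1:**
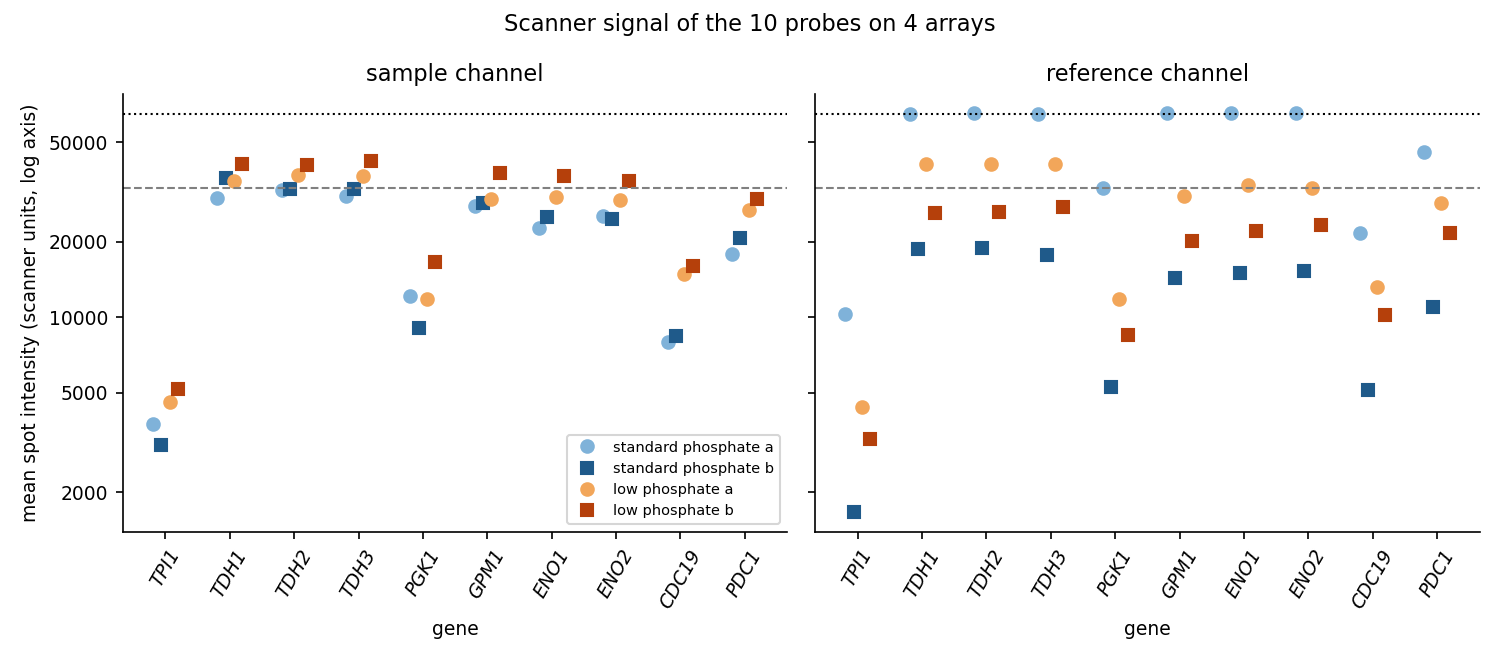
Mean spot intensity of the 10 probes (scanner units, log axis) in the sample channel (left) and the reference channel (right), 1 point per array. The dashed line marks nearly saturated signals (32768) and the dotted line the median pixel value above which a spot was counted as saturated (65000). Of the 10 members, 6 reach the dotted line in the reference channel of standard phosphate a, and none does in a sample channel.

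Saturation was counted per spot. A spot was called nearly saturated where its mean was over 32768 in either channel and saturated where its median pixel was over 65000. Of the 20 member spots, 15 were nearly saturated on standard phosphate a, 4 on standard phosphate b, 9 on low phosphate a and 12 on low phosphate b. On standard phosphate a, 12 spots of 6 members (*TDH1*, *TDH2*, *TDH3*, *GPM1*, *ENO1* and *ENO2*) were saturated in the reference, and no member spot was saturated in the sample channel of any array. For these 6 members the reference signal of standard phosphate a is a lower limit. Before normalization, their ratio on that array is then an upper limit and their difference on the a arrays a lower limit. *TPI1*, *PGK1*, *CDC19* and *PDC1* had no saturated spot, and *TPI1* and *CDC19* had no nearly saturated one. Over all gene spots, 316 were nearly saturated on standard phosphate a and 6 to 28 on each of the other arrays.

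After loess normalization of the scanner intensities, the mean log2 ratio of all 10 members was higher in low than in standard phosphate, whereas 3196 of the 6388 gene probes were higher. The median difference was 0.61 for the members and 0.0001 for all gene probes. The size of the difference depended on the dye orientation. The members' median difference was 0.02 on the a arrays, with 5 of 10 higher, and 1.36 on the b arrays, with 10 of 10 higher. Of the 6388 gene probes, 3215 were higher on the a arrays and 3177 on the b arrays. Low phosphate b was the array that stood apart, since the members' median ratio was 0.03, -0.18 and 0.05 on standard phosphate a, standard phosphate b and low phosphate a and 1.19 on low phosphate b. No member passed an adjusted p of 0.05 in limma with Benjamini-Hochberg correction over all gene probes, against a background of 0.0157% of gene probes (1 probe). *CDC19* alone had an unadjusted limma p under 0.05 and a difference over 1.7-fold, the thresholds of the study, where the background of probes higher by both was 1.6% (102 probes). In 5 of 10 members both low phosphate arrays lay above both standard phosphate arrays, against a background of 26.5% (1693 probes). With 2 arrays against 2, an exact permutation test on 1 gene cannot go below a two-sided p of 0.333. Each value is an average over a culture, so fewer cells expressing a gene and less of its RNA per cell cannot be told apart.

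**Figure D2:**
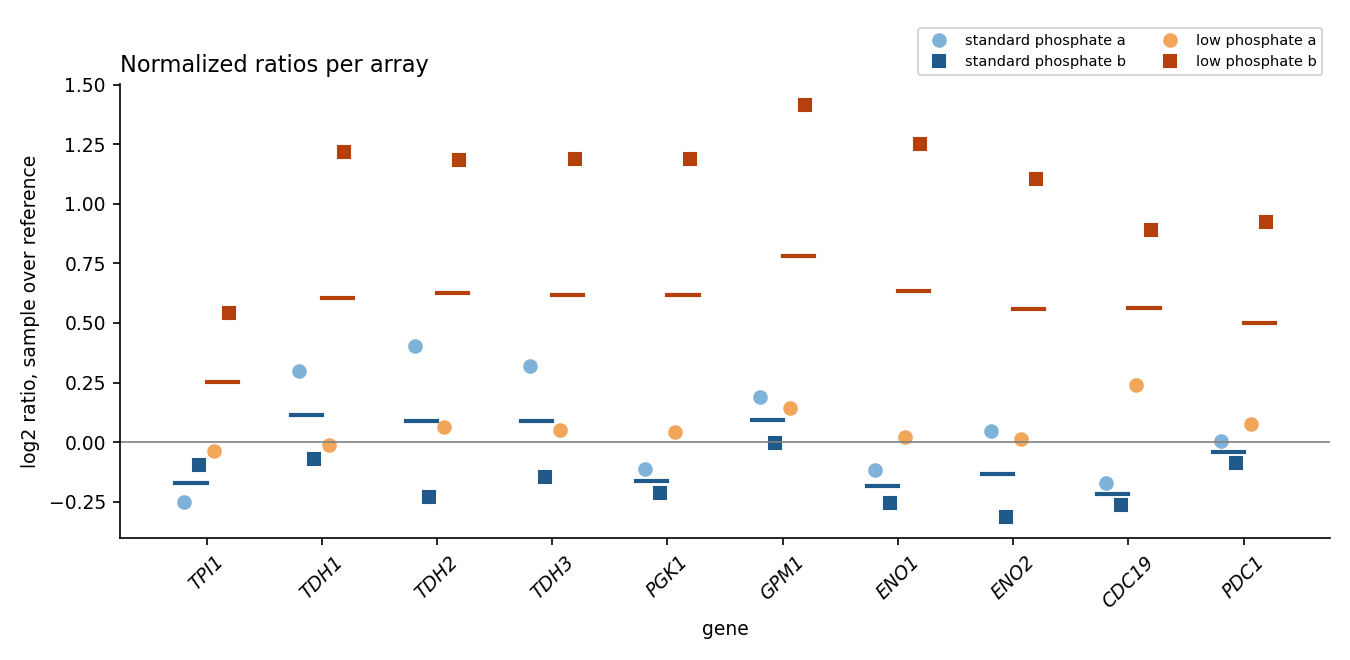
Log2 ratio of sample over reference for each member on the 4 arrays after loess, with the group means as short lines (blue for standard, red for low phosphate, n = 2). Points of low phosphate b lie between 0.54 and 1.42, above the other 3 arrays for every member, while low phosphate a lies between -0.04 and 0.24.

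*TPI1* (YDR050C), triose phosphate isomerase, which interconverts both products of the aldolase, had log2 ratios of -0.25 and -0.10 in standard phosphate a and b and of -0.04 and 0.54 in low phosphate a and b. The groups did not overlap, and low phosphate b was the high array. The difference was 0.43 ± 0.23 (SE, adjusted p = 0.435), with 0.22 on the a arrays and 0.64 on the b arrays. Of the members it had the lowest ratio on low phosphate b, and it was the only one under 1.7-fold on the b arrays.

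*TDH1*, *TDH2* and *TDH3* encode the isoenzymes of glyceraldehyde-3-phosphate dehydrogenase. *TDH3* (YGR192C), the main isoenzyme during growth on glucose, had 0.32 and -0.14 in standard phosphate a and b and 0.05 and 1.19 in low phosphate a and b. *TDH2* (YJR009C) had 0.40, -0.23, 0.07 and 1.19 in the same order, and *TDH1* (YJL052W), known for expression in slowly growing and stationary cells, had 0.30, -0.07, -0.01 and 1.22. For all 3 the groups overlapped, because standard phosphate a lay above low phosphate a. The differences were 0.53 ± 0.44 (SE, adjusted p = 0.576) for *TDH3*, 0.54 ± 0.46 (adjusted p = 0.584) for *TDH2* and 0.49 ± 0.46 (adjusted p = 0.622) for *TDH1*. On the a arrays they were -0.27, -0.34 and -0.31, all resting on a saturated reference in standard phosphate a, and on the b arrays 1.33, 1.42 and 1.29. The isoenzymes differed from each other by at most 0.16 on any array. The genes are near-identical in sequence and no probe sequences were used here, so signal shared between their probes cannot be told apart from parallel levels, and each of these values is uncertain as that of a single gene.

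*PGK1* (YCR012W), phosphoglycerate kinase, which makes the first ATP of the lower pathway, had -0.11 and -0.21 in standard phosphate a and b and 0.04 and 1.19 in low phosphate a and b. The groups did not overlap, but 0.16 lay between standard and low phosphate on the a arrays against 1.40 on the b arrays. The difference was 0.78 ± 0.42 (SE, adjusted p = 0.435). *PGK1* was dimmer than the *TDH* genes, with reference signals of 32940 on standard phosphate a and 5285 to 11807 on the other arrays.

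*GPM1* (YKL152C), phosphoglycerate mutase, had 0.19 and 0.00 in standard phosphate a and b, 0.14 in low phosphate a and 1.42 in low phosphate b, the highest member ratio on any array. The groups overlapped. The difference was 0.69 ± 0.46 (SE, adjusted p = 0.501), made of -0.04 on the a arrays and 1.42 on the b arrays.

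*ENO1* and *ENO2* encode the enolases, of which *ENO2* is known as the glucose-induced one. *ENO1* (YGR254W) had -0.11 and -0.25 in standard phosphate a and b and 0.02 and 1.25 in low phosphate a and b, with no overlap between groups. *ENO2* (YHR174W) had 0.05, -0.31, 0.01 and 1.10 in the same order, and its groups overlapped by the a arrays. The differences were 0.82 ± 0.45 (SE, adjusted p = 0.44) for *ENO1* and 0.69 ± 0.42 (adjusted p = 0.464) for *ENO2*. The enolase probes differed by at most 0.16 on an array, with the same limit for near-identical copies.

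*CDC19* (YAL038W), pyruvate kinase, which makes the second ATP and the pyruvate, had -0.17 and -0.27 in standard phosphate a and b and 0.24 and 0.89 in low phosphate a and b. The groups did not overlap, and its difference on the a arrays, 0.41, was the highest of the members. The difference was 0.78 ± 0.25 (SE, 95% interval 0.09 to 1.47), with an unadjusted limma p of 0.0343 and an adjusted p of 0.42. *CDC19* had no nearly saturated spot. Its sample signals were 7953 and 8440 for standard phosphate against 14921 and 15993 for low phosphate. Its sample signal was thus higher in both low phosphate arrays before any normalization, while the reference signals were 21790 and 5105 against 13219 and 10215. Array brightness also differed, with median sample signals over all gene spots of 383 and 254 against 310 and 322. The unnormalized log2 ratio of *CDC19* was -1.45 and 0.72 against 0.17 and 0.65. These ratios hold the dye balance of each array, with median reference signals over all gene spots of 703 and 131 against 254 and 243. With each array centred on its median, *CDC19* was 0.58 higher in low phosphate on the a arrays and 0.42 on the b arrays. After median centring, after print-tip loess and in the deposited ratios, *CDC19* did not pass both thresholds.

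*PDC1* (YLR044C), the main pyruvate decarboxylase, which directs pyruvate to acetaldehyde and ethanol, had 0.01 and -0.09 in standard phosphate a and b and 0.08 and 0.92 in low phosphate a and b. The groups did not overlap, by a gap of 0.07 on the a arrays. The difference was 0.54 ± 0.31 (SE, adjusted p = 0.454), with 1.01 on the b arrays.

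By difference after loess, the members ran from *ENO1*, *CDC19* and *PGK1* (0.82, 0.78 and 0.78) to *TDH1* and *TPI1* (0.49 and 0.43). The 95% half-widths of single differences were 0.64 to 1.29, wider than the whole range between members. These half-widths do not measure the spread of a difference between members, which share the same arrays. Differences between members were not tested, so the order is descriptive. The order also changed with the processing. *TDH1* had the highest member difference in the deposited ratios (1.04) and after print-tip loess (0.86), where *ENO1* had 0.23 and 0.14. For the 6 members with a saturated reference the rank is not defined, since their values on standard phosphate a are limits. In the comparison of single arrays, which has no test, 0 of 10 members were over 1.7-fold higher on the a arrays, against a background of 1.39% of gene probes, and 9 of 10 on the b arrays, against 7.59%. Among the 100 brightest other gene probes, 43 were over 1.7-fold higher on the b arrays and 0 on the a arrays, so a high difference on the b arrays was shared by many other bright probes. The calls differed with the arrays kept. Without low phosphate a, where the low phosphate group is the single array b, all 10 members were among the 2030 gene probes that passed the adjusted p of 0.05 in limma. Without low phosphate b the members' median difference was 0.13 and 0 of 10 passed.

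The normalization curve bent toward another bright group on low phosphate b. Among the 100 brightest other gene probes, 47 carry symbols of cytoplasmic ribosomal proteins and 35 carry no symbol. These 47 probes were picked out after their values were seen. None of them was over 1.7-fold higher on the b arrays, and 43 of the other 53 bright probes were. Those 53 had a median difference of 0.98 on the b arrays and -0.22 on the a arrays after loess, and of 0.06 and 0.01 after median centring. On the b arrays the median difference of the 47 ribosomal protein probes was -0.40 after loess and -1.27 when each array was only centred on its median, a shift that moved the members from 1.36 to 0.36 and the median of all gene probes from 0.00 to 0.16. Before normalization the members' log2 ratios were 0.45 to 0.97 on low phosphate b and 0.69 to 1.005 on standard phosphate b. Only *PGK1* was then higher on low than on standard phosphate b, with 0.97 against 0.78. These ratios hold the dye balance of the whole array, which differed between both b arrays. Median signals over all gene spots were 254 (sample) and 131 (reference) on standard phosphate b, and 322 and 243 on low phosphate b. Centring each array on its median alone placed all 10 members higher on low than on standard phosphate b, by 0.03 to 0.69. On low phosphate b, loess added between 0.14 (*TPI1*) and 0.85 (*TDH3*) more than median centring did. The distance between the members and the ribosomal protein probes was 1.76 on the b arrays after loess, 1.63 after median centring, 1.57 in the deposited ratios, 1.01 after print-tip loess and 0.86 after print-tip loess by the steps the authors state, without background subtraction. After loess and after median centring, all 10 members lay above all 47 ribosomal protein probes on the b arrays, and after print-tip loess 6 did. On the a arrays the distance was 0.08 after loess, 0.06 after median centring and 0.12 in the deposited ratios.

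**Figure D3:**
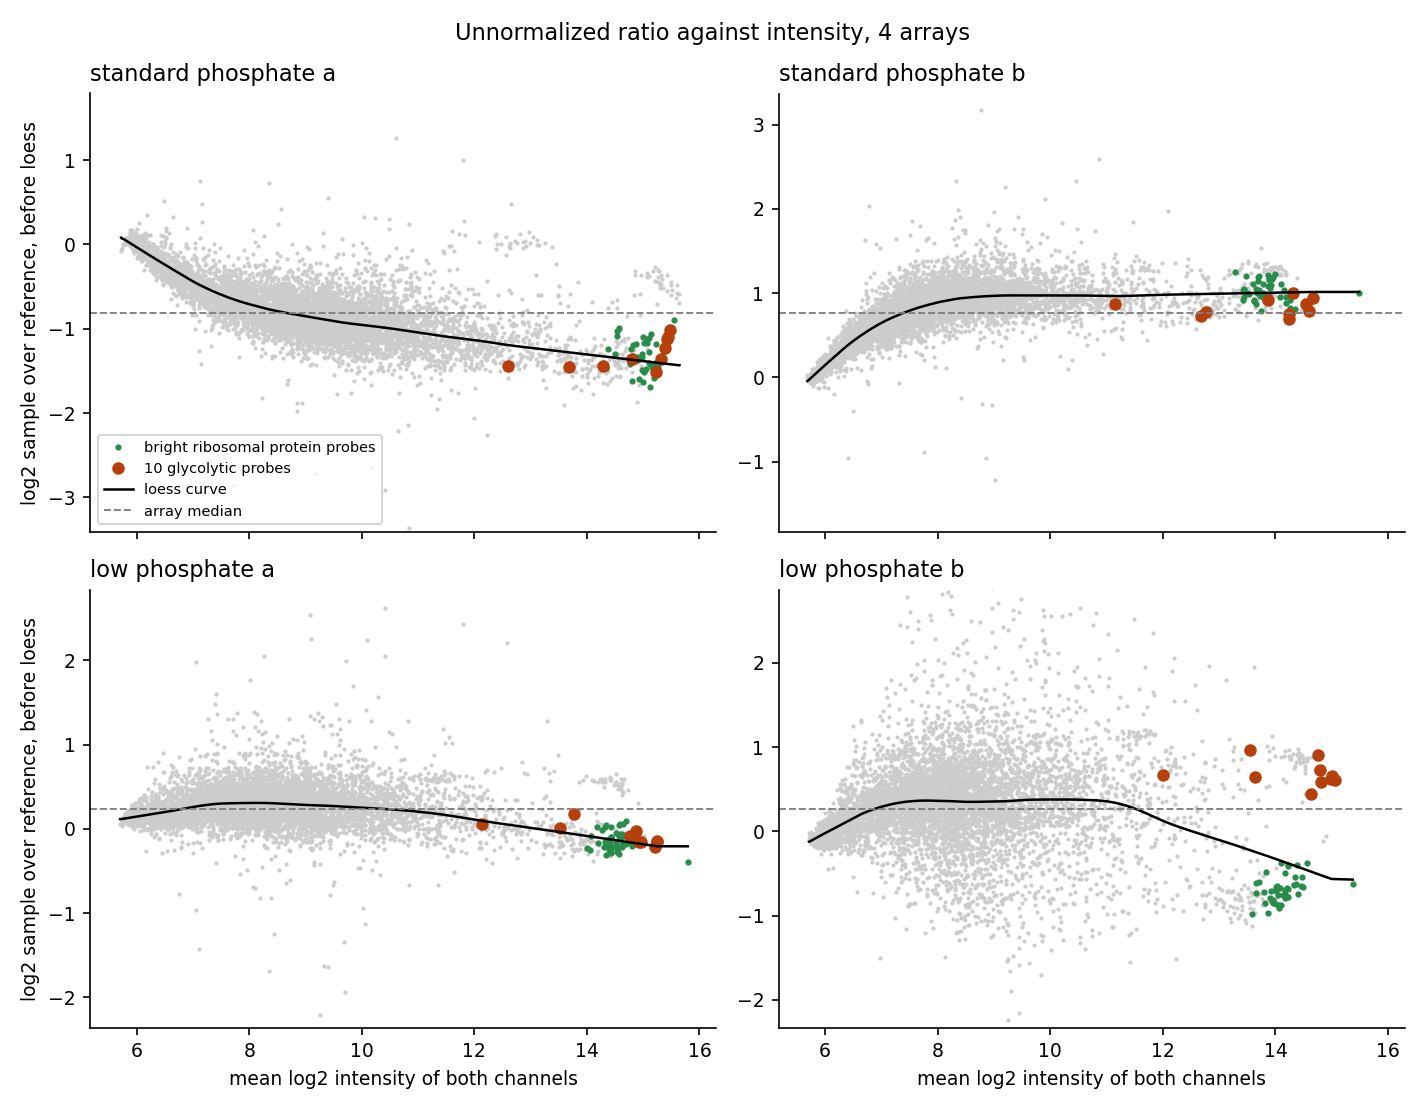
Log2 ratio of sample over reference before normalization against the mean log2 intensity of both channels, for 6388 gene probes (grey) on the 4 arrays, with the loess curve (running median over neighbouring probes) and the array median (dashed). A few probes with ratios far from the array median lie outside the axes. On low phosphate b the curve bends down toward the ribosomal protein probes (green) at the bright end, and the 10 members (red) lie above it, while on the other 3 arrays both groups lie near the curve.

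The deposited log2 ratios, which the authors made by print-tip loess and a dye-bias correction, placed most members further up on low phosphate b and 3 of them lower. Their members' median was -0.05, -0.12 and 0.05 on standard phosphate a, standard phosphate b and low phosphate a and 1.38 on low phosphate b, where single members ran from -1.07 to 1.94. *TDH1* had 1.94, *TDH2* 1.79 and *TDH3* 1.39 on low phosphate b. *PGK1* had 1.65, *CDC19* 1.54, *PDC1* 1.38 and *ENO2* 1.36 there. *GPM1* had -1.07, *ENO1* -0.06 and *TPI1* 0.12, which is 2.49, 1.31 and 0.42 below the loess ratios of the same spots. The near-identical *ENO1* and *ENO2* thus stood 1.42 apart in the deposited ratios of low phosphate b and 0.15 apart after loess over the whole array, and the *TDH* genes 0.55 and 0.03 apart.

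Low minus standard phosphate in the deposited ratios was over 1.7-fold higher on the b arrays for 7 of 10 members, against a background of 7.28%, with a median of 1.54. Of the 100 brightest other gene probes 35 were, of which 1 carries a ribosomal protein symbol. *GPM1* was -0.88, *TPI1* 0.22 and *ENO1* 0.23. On the a arrays 9 of 10 were higher, with *TDH2* at -0.23, and the median was 0.13. Of all 6388 gene probes 3339 were higher there, and of the 100 brightest others 45. Both spots of a probe lie in the same print block and differed by at most 0.11 on low phosphate b in the deposited ratios and 0.05 after loess, so the pair of spots does not show differences between blocks. *ENO1* and *TPI1* share a print block, and so do *TDH2* and *PGK1*. On low phosphate b, 12 of the 20 member spots had no brighter spot left in their print block from which a curve could be drawn once nearly saturated spots are left out, as the authors' protocol states, against 14, 4 and 9 on standard phosphate a, standard phosphate b and low phosphate a. The spots of *GPM1*, *ENO1*, *ENO2* and the 3 *TDH* genes were all among the 12. The part of this step in the deposited values was not tested. Print-tip loess computed here by the stated steps, without the dye-bias correction, gave -0.12 for *GPM1*, -0.16 for *ENO1* and 1.92 for *TDH1* on low phosphate b. The deposited values of these genes were -1.07, -0.06 and 1.94. *TDH2*, *PGK1*, *CDC19* and *PDC1* had 0.56, 0.86, 0.45 and 0.65 by the stated steps, against 1.79, 1.65, 1.54 and 1.38 deposited. *TDH3*, *ENO2* and *TPI1* had 1.21, 1.25 and 0.06, against 1.39, 1.36 and 0.12. The stated steps thus did not give the deposited values of every member.

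**Figure D4:**
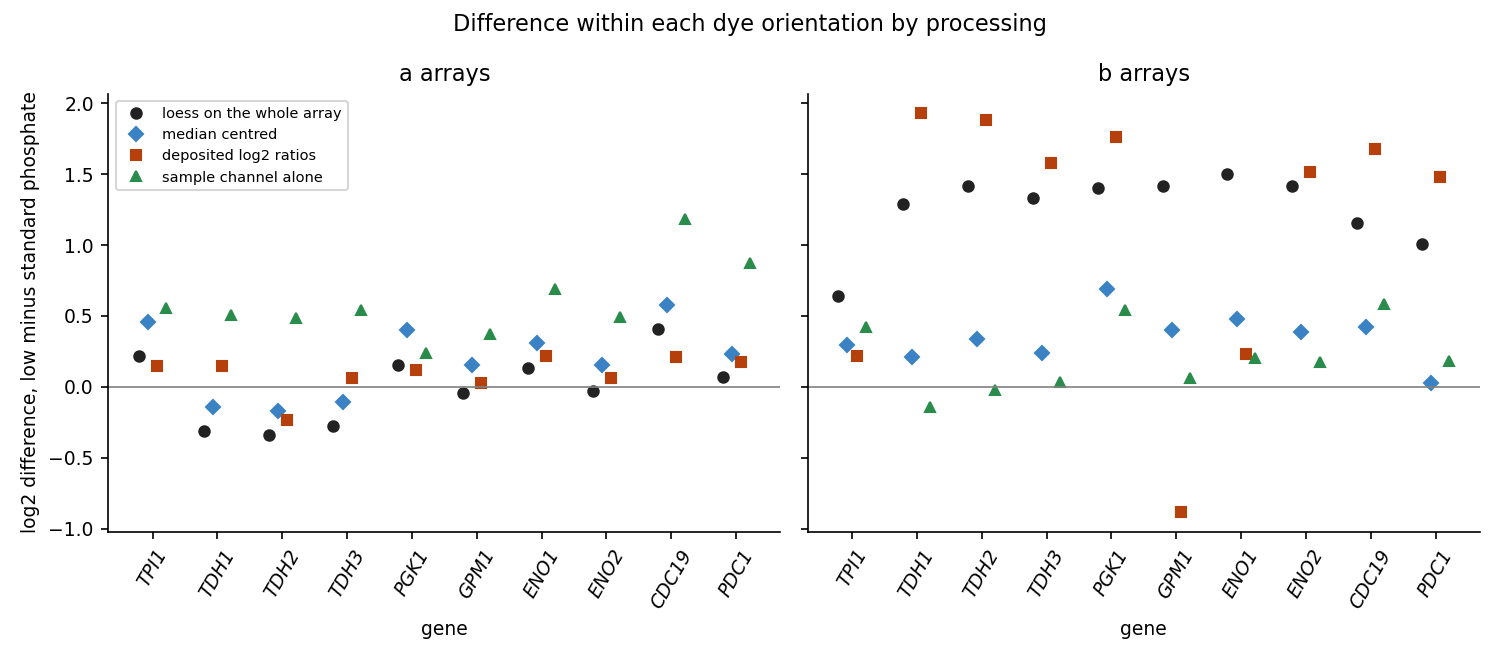
Log2 difference of low minus standard phosphate for each member on the a arrays (left) and the b arrays (right), from loess over the whole array, median centring, the deposited ratios and the sample channel alone. On the b arrays the members' medians are 1.36, 0.36, 1.54 and 0.18 in that order, and *GPM1* stands at -0.88 in the deposited ratios.

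The single channels gave the differences another distribution over the arrays. In the background-corrected sample channel, centred on the median of each array, low minus standard phosphate had a median over the members of 0.52 on the a arrays, with 10 of 10 higher, and of 0.18 on the b arrays, with 8 of 10 higher. Of all 6388 gene probes, 3253 were higher on the a arrays and 2909 on the b arrays. Of the 100 brightest other gene probes, 73 and 19 were. *CDC19* was the highest member in both, with 1.18 and 0.59. *PDC1* was 0.87 on the a arrays and 0.18 on the b arrays, and *TDH1* 0.50 and -0.14. In the reference channel, where the RNA is the same, the members' median difference was 0.61 on the a arrays and -0.18 on the b arrays, and it was 0.72 and 0.20 for *CDC19*, whose reference was not saturated. The median on the a arrays rests partly on limits, since the reference of 6 members was saturated on standard phosphate a. Of the members without a saturated spot, *TPI1*, *PGK1*, *CDC19* and *PDC1* had 0.22, -0.04, 0.72 and 0.76 in the reference on the a arrays. Their sample channel gave 0.56, 0.24, 1.18 and 0.87 there. The reference signal of the members thus differed between arrays as well.

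Genes around the members were counted from lists of the pathway. The 7 genes of upper glycolysis, from hexose phosphorylation to aldolase, were all higher in low phosphate, with a median difference of 0.50, 0.21 on the a arrays and 0.97 on the b arrays. *GLK1* (glucokinase) was the 1 gene of them past an unadjusted p of 0.05 and 1.7-fold, with a difference of 1.92 ± 0.60 (SE). Hexokinase *HXK1* had the highest difference, 2.07 ± 0.77 (SE), with 1.34 on the a arrays and 2.79 on the b arrays, and the phosphofructokinase subunit gene *PFK1* the lowest, 0.24 ± 0.16 (SE). *HXK1* and *GLK1* thus differed from the members in being over 1.7-fold higher in both dye orientations, a difference between genes that was not tested.

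Of 8 genes for minor isoenzymes 7 were measured, since *ERR2* matched no probe, and 5 of 7 were higher and 2 lower, with a median of 0.38 and none past both thresholds. *GPM2*, a homologue of phosphoglycerate mutase, had the highest difference, 1.34 ± 0.63 (SE), and *GPM3* the lowest, -0.09 ± 0.12 (SE). Of 5 regulator genes, 2 were higher and 3 lower, and none passed. *TYE7*, a transcription factor of glycolytic genes, was at 0.91 ± 0.34 (SE), and *RAP1*, a general factor at glycolytic and ribosomal protein promoters, at -0.33 ± 0.14 (SE). Of 9 genes that act on pyruvate or its products, 8 were higher and 1 was lower. *LPD1*, dihydrolipoamide dehydrogenase, had the highest difference, 0.45 ± 0.17 (SE). *PYC1*, pyruvate carboxylase, fell by 0.99 ± 0.15 (SE), past the unadjusted p and 1.7-fold, with -1.21 on the a arrays and -0.77 on the b arrays, and an adjusted p of 0.398.

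The gene probes most like the members were sought by the Euclidean distance over the 4 array ratios to the members' mean ratios, which were 0.06, -0.17, 0.06 and 1.09 in the order standard a, standard b, low a, low b. The nearest 5 were a probe with no symbol (distance 0.10), *IRC9* (0.19), *CWP2* (0.22), *ADE17* (0.22) and *YNL115C* (0.25). *CWP2*, a cell wall mannoprotein, had -0.08, -0.24, 0.17 and 0.98, and *ADE17*, an enzyme of purine synthesis, had 0.05, -0.01, -0.09 and 1.15. Both were low on 3 arrays and high on low phosphate b, as the members were, which the choice by distance fixed in advance.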

How the data were processed

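RNA of 4 samples was measured on 2-colour spotted oligonucleotide arrays. The deposited scanner files hold mean and median spot intensity and background intensity per channel, as read by the authors from Agilent scans in Imagene, without normalization. The deposited log2 ratios were made by the authors with print-tip loess (span 0.4, background not subtracted, curve drawn without absent or nearly saturated spots) and a correction for gene-specific dye bias. Their medians were -0.0072, -0.0059, -0.012 and -0.0063, and their direction was sample over reference on each array. A deposited final table of log2 values and p-values per condition, computed by the authors with limma 2.12.0, was not used.

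Intensities were corrected with normexp (offset 50), normalized by loess (span 0.3) on gene spots, turned to sample over reference, averaged over 2 spots and tested with limma 3.58.1 in R 4.3.3 (lmFit and eBayes, 2 residual and 1.98 prior degrees of freedom), with Benjamini-Hochberg adjustment over 6388 gene probes. Of these, 5326 carry a symbol. Groups, letters and dyes came from the labels, also where the series' design text gives another dye for the first hybridization. The series' design text describes independent cultures, and the methods biological replicates that were each dye-swapped, so if the arrays of a group share a culture, p-values measure technical spread only. The number of arrays limits the precision. The procedure was tested on simulated data. Alternatives were the background correction, the normalization, saturated and dim probes, the deposited ratios, the replicate letter as a block and each array left out. The authors' stated steps together and the sample channel alone were added after the data were seen.

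The members and lists were chosen with earlier results of these data known. All members were named, and of each list the genes with the highest and the lowest difference, besides those past both thresholds. The array files name no genome build, so no coordinates are given, and no sequences were used here.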

Additional observations from a re-analysis of the deposited data

How the results depend on the processing

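The members' median difference of 0.61 was positive under all alternatives and ran from 0.13 without low phosphate b to 1.11 without low phosphate a. It was 0.24 with loess on spike-in spots, 0.27 with print-tip loess and with median centring, 0.42 by the authors' stated steps and 0.82 in the deposited ratios. On the b arrays the median moved from 1.36 to 0.55 with print-tip loess, 0.36 with median centring, 0.53 with spike-in spots, 0.67 by the authors' stated steps and 0.18 in the sample channel alone. The 1 member past 1.7-fold and an unadjusted p of 0.05 became 0 with median centring, scaling between arrays, normexp offset 0, spike-in spots, print-tip loess, the deposited ratios and the authors' stated steps. With 1 array left out it ranged from 0 to 9, and members past the adjusted p from 0 to 10, the highest without low phosphate a, where the lone array was assumed to vary like the other group. The causes were not tested. A limma fit with a variance trend and robust variances, leaving out dim probes, and the replicate block cannot change a member's difference. Leaving nearly saturated spots out of the probe mean changes a value only where 1 spot of a probe was nearly saturated and the other was not. Where both were, the full mean was kept. This setting left *TPI1*, *TDH1*, *GPM1*, *ENO1*, *CDC19* and *PDC1* unchanged. The agreement in sign of these settings and members, counted next, was therefore fixed in advance. Of 170 single values, 163 kept their sign, and those that turned belonged to *TDH1*, *TDH2*, *TDH3* and *GPM1*, with none called in the other direction.

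Over all gene probes, 196 were past both thresholds and 1 past the adjusted p. The first count was 379 with normexp offset 0, 64 and 73 without standard phosphate a and b, 936 without low phosphate a and 101 without low phosphate b. The second was 3 with scaling between arrays, 2030 and 96 without low phosphate a and b, and 0 without either standard phosphate array and with normexp offset 0, median centring, spike-in spots, print-tip loess, the deposited ratios and the authors' stated steps. With the letter as a replicate block, 334 probes were past both thresholds and 0 past the adjusted p, with 1 member past both thresholds. The members' median was 0.61 here too, since a block cannot change it where each letter has 1 array per group. The letters share only the dye orientation, and deviations of arrays with the same letter correlated at 0.28 across probes.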
